A study of Mus musculus with 6 samples.

Results

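Collagens, laminins and integrins are the proteins that build the extracellular matrix and hold cells to it. Probe sets for their genes were taken from the arrays by symbol: those whose single gene symbol in the platform annotation begins with Col and a digit, with Lama, Lamb or Lamc and a digit, or with Itga or Itgb. This rule, which uses no measured value, found 166 of the 45101 probe sets, for 81 genes. They comprised 42 collagen genes, 10 laminin genes, 16 integrin alpha genes, 9 integrin beta genes and 4 genes that are named after an integrin without encoding a chain of one (Itgb1bp1, Itgb1bp2, Itgb3bp and Itgbl1).

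The RNA came from mouse embryonic stem cells of the Dicer -/- line 27H, which cannot cut microRNA precursors and so lack most mature microRNAs. The 3 tested samples received synthetic mimics of the mmu-miR-290 cluster (mimic arrays), and the 3 comparison samples received siRL, an siRNA against Renilla luciferase, which mouse cells do not carry (control arrays). All 6 samples share the Dicer deletion, the single cell line and the undifferentiated state, and all were taken 24 h after transfection. Nothing in the labels says that replicates were separate cultures, so the spread behind each p-value is that between these arrays and may be technical. The stem cell label fits the marker Pou5f1, which encodes the factor Oct4 and gave 12239 ± 386 on the mimic arrays and 11430 ± 1029 on the control arrays (SD, n = 3 each).

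Laminins are trimers of an alpha, a beta and a gamma chain, and with the network-forming collagen IV they make up the basement membrane, the thin sheet under epithelia that early embryos and embryonic stem cells also lay down. Fibrillar collagens such as collagens I and III form the fibres of connective tissue. Integrins are pairs of an alpha and a beta chain that span the cell membrane: alpha 6 with beta 1 binds laminin, alpha 5 with beta 1 binds fibronectin, and alpha V with beta 3 or beta 5 binds vitronectin and other proteins with an RGD motif. Embryonic stem cells use the laminin and vitronectin receptors to stay attached in culture.

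The microRNAs of the miR-290 cluster find their targets mainly through the seed, bases 2 to 8. The sequences below are 3p mature forms of the cluster from RefSeq (GRCm38.p6, plus strand, within chr7:3218674-3220837), shown because these microRNAs were the treatment. The labels name the cluster and not each mimic. The cluster also holds miR-292a-3p. The seed is in capitals. Of the sequences printed, the forms of miR-291a, miR-294 and miR-295 share 1 seed, those of miR-290a and miR-291b differ from it in the last seed base, and that of miR-293 has its own.
mmu-miR-290a-3p: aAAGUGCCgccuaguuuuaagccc
mmu-miR-291a-3p: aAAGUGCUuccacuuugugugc
mmu-miR-291b-3p: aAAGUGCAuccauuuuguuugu
mmu-miR-293-3p: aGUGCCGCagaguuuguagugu
mmu-miR-294-3p: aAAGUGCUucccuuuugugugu
mmu-miR-295-3p: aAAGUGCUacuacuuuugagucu

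Most of these genes gave little signal in the stem cells. A probe set was tested where its mean log2 intensity over the 6 arrays was at least 4 (an intensity of 16). Of the 166 probe sets, 87 (52.4%) fell below this, 37 were dim, with a mean log2 from 4 to under 6 (an intensity of 64), and 42 were brighter. In all, 74.7% of the members lay below 6. Of all 45037 probe sets other than control probe sets, 35.2% lay below 4 and 56.7% below 6. For orientation, 63 probe sets of 38 genes that are used mainly in other tissues, such as albumin and rhodopsin, had a median mean log2 of 3.29, with 65.1% below 4, 84.1% below 6 and a 90th percentile of 6.49. A probe set in the dim range therefore reads no more than many probe sets of such genes, and those a little above 6 lie near the upper end of that range.

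**Figure D1:**
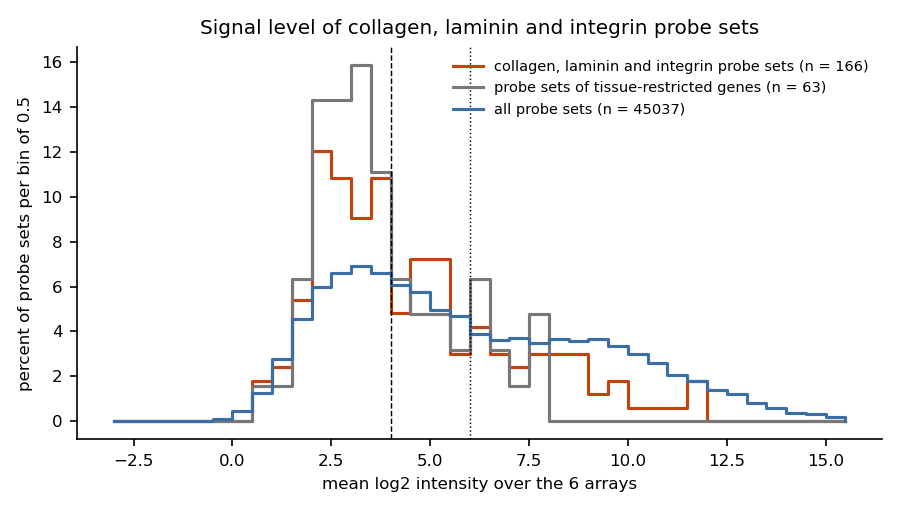
Distribution of the mean log2 intensity over the 6 arrays for collagen, laminin and integrin probe sets, for probe sets of tissue-restricted genes and for all probe sets, as percent of probe sets per bin. The dashed line marks a mean log2 of 4 and the dotted line 6, and 124 of the 166 probe sets lie left of 6.

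By gene, 29 had no tested probe set, 25 had dim ones only and 27 had at least 1 brighter probe set. Among the 29 were the fibrillar collagen genes Col1a1, Col1a2, Col3a1 and Col11a1, the collagen VI gene Col6a1, the kidney basement membrane chains Col4a3 and Col4a4, and Col6a5, Col8a1, Col8a2, Col10a1, Col15a1, Col19a1, Col20a1, Col23a1, Col24a1, Col25a1 and Col26a1. The laminin alpha chains of muscle and vessel, Lama2 and Lama4, and the integrin genes Itga1, Itga2, Itga4, Itgam, Itgax, Itgb6 and Itgb8 belonged here too, with Itgb1bp2 and Itgbl1. None of these 29 exceeded an intensity of 53.9 on any array. For Col1a1, the main collagen of bone and skin, the brighter probe set read 17.5, 11.1 and 5.16 on the mimic arrays and 19.6, 24.4 and 22.4 on the control arrays. Its partner in collagen I, Col1a2, read 2.20, 32.2 and 18.4 with the mimics, against 17.4, 11.5 and 14.8. Col3a1, the collagen III gene, read 7.36, 17.1 and 12.3, against 14.4, 4.04 and 2.16.

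Dim only were Col4a5, Col4a6, Col5a3, Col6a2, Col6a3, Col6a4, Col7a1, Col9a1, Col9a2, Col9a3, Col11a2, Col12a1, Col13a1, Col14a1, Col16a1, Col17a1, Col22a1 and Col27a1, the laminin genes Lamb3 and Lamc3, and the integrin genes Itga7, Itga8, Itga10, Itgb2 and Itgb2l. The highest value of these 25 genes on any array was 94.6. Among the 87 probe sets below the filter, 0 passed at a Benjamini-Hochberg adjusted p under 0.05 when limma was run without the filter. That fit called 0 probe sets lower and 0 higher over the whole array, so its count holds nothing particular to these members. Of the 87, 13 had an unadjusted p under 0.05, and the share over all probe sets below the filter was not counted.

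One member passed the main test and it lay in the dim range. Of 79 member probe sets tested with limma, 0 were lower and 1 was higher at an adjusted p under 0.05, while 0.946% of all 29167 tested probe sets were lower and 0.343% higher. A second limma fit let the prior variance follow the signal level and estimated it robustly (the level-dependent robust prior), and called 6 member probe sets lower and 5 higher, 7.59% and 6.33% of the members, against 6.56% and 4.73% of all. On 7 member probe sets every mimic value lay below every control value and on 12 every mimic value lay above, 8.86% and 15.2% of those tested, where 15.5% and 13.8% of all probe sets did so. The shares of the members were thus close to the background or, for the lower non-overlapping ones, under it. Of the members 22.8% had an unadjusted p under 0.05, against 20.1% of all tested probe sets. The median log2 fold change (mimic minus control, as everywhere here) was 0.06 over the members and −0.01 over all. In these bulk samples, fewer cells of a type and less RNA per cell cannot be told apart.

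The chain that passed was Col13a1, a collagen with a membrane anchor that is found at muscle synapses and other cell contacts. It read 63.7, 54.1 and 52.0 on the mimic arrays and 20.1, 24.3 and 25.7 on the control arrays. All mimic values were the higher ones (56.6 ± 6.21 with the mimics and 23.4 ± 2.91 with the control siRNA, SD, n = 3 each). The log2 fold change of 1.28 ± 0.14 SE had a limma adjusted p of 0.0386, and of 0.0477 with the level-dependent robust prior. All 6 values lie in the range of the tissue-restricted probe sets, so the fold has no measured baseline; after adding 16 to all intensities (the offset of 16) the log2 fold change was 0.88. Without any 1 array its call was lost in both fits (limma adjusted p between 0.0697 and 0.165 with the level-dependent robust prior).

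No change was detected in the laminin chains. The alpha 1, beta 1 and gamma 1 chains form laminin-111, the earliest laminin of the embryo, and alpha 5 takes the place of alpha 1 in laminin-511, on which embryonic stem cells can be grown. Of 12 laminin probe sets tested, 0 passed limma with either prior and 0 had an unadjusted p under 0.05.

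Lamc1, the gamma 1 chain, read 1435, 1505 and 1373 on the mimic arrays and 1446, 1334 and 1393 on the control arrays. The groups overlapped, and the log2 fold change of 0.05 had a 95% interval from −0.15 to 0.24. Lama1 read 349, 301 and 321 on the mimic arrays, against 325, 298 and 325 on the control arrays (log2 fold change 0.03, 95% interval −0.19 to 0.26). These intervals leave room for changes of up to about 0.26 on the log2 scale in either gene.

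Lama5 also overlapped between the groups, with 447, 431 and 368 on the mimic arrays and 408, 414 and 435 on the control arrays (log2 fold change −0.02, 95% interval −0.27 to 0.24). Its second bright probe set gave 0.01. For Lamb1, the beta 1 chain, the mimic arrays read 808, 580 and 1044 and the control arrays 781, 727 and 769. The mimic values spread on both sides of the control values, and the interval was wide (log2 fold change 0.05, 95% interval −0.51 to 0.62). A further Lamc1 probe set gave −0.20 and 2 further Lamb1 probe sets gave 0.29 and 0.26, none of them past the test.

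The remaining laminin chains above the dim range were Lama3, an alpha chain of skin and other epithelia, and Lamb2, a beta chain of kidney and nerve-muscle contacts. Lama3 read 287, 223 and 251 on the mimic arrays and 160, 246 and 199 on the control arrays (log2 fold change 0.34, 95% interval −0.14 to 0.83). Lamb2 read 92.1, 129 and 131, against 112, 66.2 and 124 (0.25, −0.48 to 0.99). Both overlapped between the groups, and neither interval excludes a change of more than 1.5-fold.

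**Figure D2:**
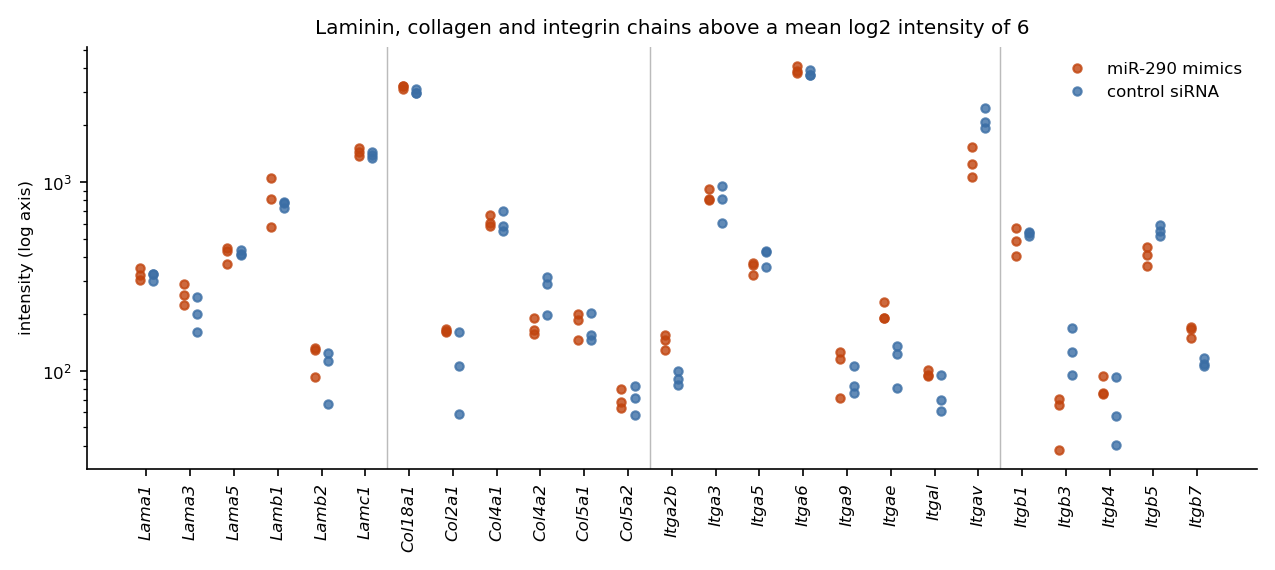
Intensity on each array (log axis) for the laminin, collagen and integrin alpha and beta chains, from left to right, whose brightest probe set had a mean log2 of at least 6, with 3 mimic arrays left and 3 control arrays right for each gene. Levels of different genes come from different probes and are not comparable. The values separate for Itgav, Itgb5, Itgb3 and Col4a2, with the mimic arrays lower, and for Itga2b, Itgae, Itgb7 and Col18a1, with the mimic arrays higher.

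In all, 6 collagen genes lay above the dim range, and none of them passed the main test. Col18a1, the basement membrane collagen whose end fragment is endostatin, read 3226, 3232 and 3127 on the mimic arrays and 2968, 2972 and 3121 on the control arrays. The mimic values were all the higher ones, by a small amount (log2 fold change 0.08, 95% interval −0.09 to 0.25; limma adjusted p = 0.552), and a second probe set gave 0.13. Col2a1, the collagen of cartilage (0.70, 95% interval −0.24 to 1.65), and the fibre-regulating chains Col5a1 (0.08) and Col5a2 (0.00) overlapped between the groups.

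The chains of collagen IV, Col4a1 and Col4a2, are made from neighbouring genes that point away from each other and start close together. The 300-base RefSeq window around the start of Col4a2 (250 bases before to 50 after, chr8:11312555-11312854, plus strand, GRCm38.p6) is printed here. In capitals are the 78 bases that it shares with the corresponding window of Col4a1 on the minus strand. Their extent follows from the size of the windows and marks no measured feature.
Col4a2: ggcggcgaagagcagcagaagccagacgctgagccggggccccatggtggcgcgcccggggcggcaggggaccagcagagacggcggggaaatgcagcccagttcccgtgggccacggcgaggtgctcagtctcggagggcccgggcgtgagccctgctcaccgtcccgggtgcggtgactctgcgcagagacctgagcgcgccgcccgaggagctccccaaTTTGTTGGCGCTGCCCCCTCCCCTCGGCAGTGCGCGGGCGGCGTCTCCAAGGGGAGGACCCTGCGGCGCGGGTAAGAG

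Col4a1 read 608, 669 and 584 on the mimic arrays and 548, 584 and 701 on the control arrays, and the groups overlapped (log2 fold change 0.03, 95% interval −0.28 to 0.34). Its dimmer probe set gave −0.08. Col4a2 read 164, 156 and 189 on the mimic arrays, against 198, 286 and 314 on the control arrays, so that all mimic values were the lower ones. Its log2 fold change was −0.63 ± 0.20 SE, which missed the main test (limma adjusted p = 0.175) and passed with the level-dependent robust prior (0.047), but there only in 1 of the 6 fits that left out 1 array, that without control replicate 1.

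Within each array, the log2 ratio of the Col4a2 to the Col4a1 probe set was −1.89, −2.10 and −1.63 with the mimics and −1.47, −1.03 and −1.16 with the control siRNA. The groups differed by −0.65 without overlap (two-sided exact permutation test, p = 0.1, the smallest that 3 against 3 arrays allow; adjusted over 3 such ratios, p = 0.15). The ratio was lower on every mimic array than on any control array, in a design that cannot reach 0.05 for it.

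The alpha V integrin chain and the beta 3 and beta 5 chains missed the main test, and on the brightest probe set of each all mimic values lay below all control values. Itgav, the alpha V chain of the vitronectin receptors, read 1248, 1056 and 1534 on the mimic arrays and 2069, 1931 and 2466 on the control arrays. All mimic values lay below all control values, a ratio of 1.68 between the control and the mimic mean (log2 fold change −0.76 ± 0.18 SE). The main test was missed (limma adjusted p = 0.101), whereas the level-dependent robust prior gave an adjusted p of 0.00523 and at most 0.0262 whichever array was left out. A dim second Itgav probe set also gave −0.76, with overlapping groups.

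Itgb5, the beta 5 chain, read 412, 453 and 357 on the mimic arrays and 550, 589 and 515 on the control arrays, again without overlap (log2 fold change −0.44 ± 0.12 SE, with a limma adjusted p of 0.132, and of 0.027 with the level-dependent robust prior). Its 3 other probe sets gave −0.23, −0.53 and −0.42, of which the second passed with the level-dependent robust prior and the one at −0.23 had overlapping groups. Those with −0.23 and −0.53 are of a type that Affymetrix marks as open to cross-hybridisation. The brightest one passed in 2 of the 6 fits with that prior that left out 1 array.

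Itgb3, the beta 3 chain, was near the upper end of the tissue-restricted range, with 38.1, 65.5 and 71.0 on the mimic arrays and 169, 126 and 94.7 on the control arrays. The groups did not overlap (log2 fold change −1.17 ± 0.33 SE; −0.97 with the offset of 16). Limma gave an adjusted p of 0.142, and of 0.0273 with the level-dependent robust prior, which 3 of its 6 fits without 1 array retained. A second Itgb3 probe set, below the filter, read 6.50, 32.1 and 58.0 on the mimic arrays and 22.1, 5.33 and 7.49 on the control arrays, with overlap.

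Beta 1 is the partner of most alpha chains, and its 3 tested probe sets all had negative log2 fold changes, of different size. The brightest Itgb1 probe set read 567, 484 and 407 on the mimic arrays, against 541, 518 and 533 on the control arrays, with overlap (log2 fold change −0.14, 95% interval −0.48 to 0.20). The second read 213, 236 and 304, against 372, 411 and 447, without overlap (−0.72 ± 0.16 SE, limma adjusted p = 0.0964; 0.00853 with the level-dependent robust prior, which called it whichever array was left out). A further dim one gave −0.40. The log2 ratio of the second to the brightest differed by −0.58 between the groups (two-sided exact permutation test, p = 0.2). With 3 against 3 arrays this test cannot go below 0.1, so it cannot decide whether the probe sets differ.

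**Figure D3:**
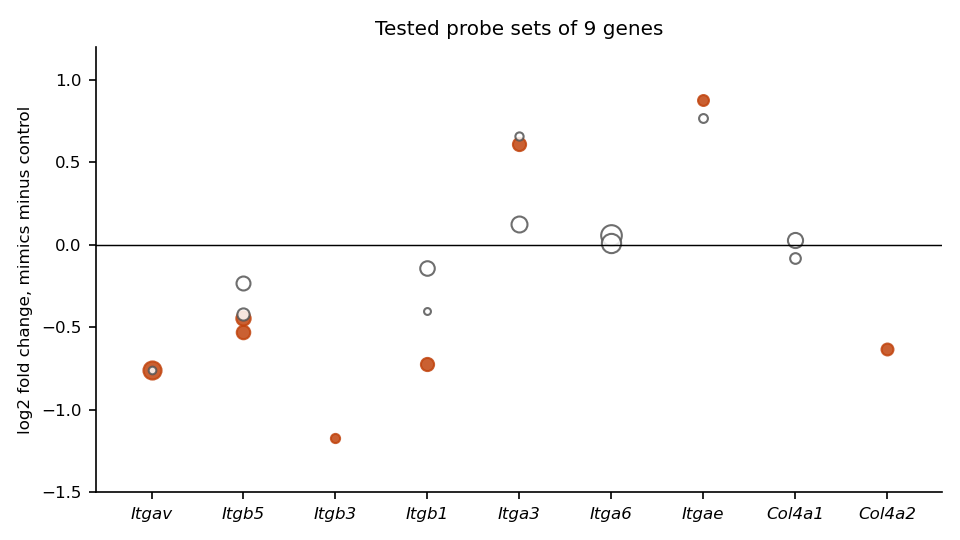
Log2 fold change (mimics minus control) of every tested probe set of 9 genes; larger points had a higher mean intensity, and filled points passed at an adjusted p under 0.05 with the level-dependent robust prior. The Itgav and Itgb5 probe sets all lie below 0, the 2 bright Itgb1 probe sets lie at −0.14 and −0.72, and the Itga6 probe sets lie at 0.06 and 0.01.

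The laminin receptor chain Itga6, a common surface marker of stem cells, stood near 0. It read 3788, 3888 and 4108 on the mimic arrays and 3694, 3928 and 3701 on the control arrays, with overlap, and the log2 fold change of 0.06 had a 95% interval from −0.13 to 0.24. A second bright probe set gave 0.01 (−0.16 to 0.17). Both intervals keep any change under 0.25 on the log2 scale.

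Within each array the log2 ratio of Itgav to Itga6 was −1.60, −1.88 and −1.42 with the mimics and −0.84, −1.02 and −0.59 with the control siRNA. It differed by −0.82 without overlap (two-sided exact permutation test, p = 0.1, the smallest possible; p = 0.15 adjusted over the 3 ratios). The 3 ratios were not planned in advance, and this pair was chosen after its values were seen.

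Itga5, the fibronectin receptor chain, read 364, 370 and 320 on the mimic arrays and 352, 424 and 429 on the control arrays, with overlap (log2 fold change −0.19, 95% interval −0.49 to 0.11). This probe set is of a type that can match transcripts of more than 1 gene. Of its dimmer probe sets, 1 gave −0.30 and 2 near the filter gave 0.76 and 1.08 with wide intervals. Itga3, another laminin receptor chain, read 799, 922 and 816, against 603, 946 and 812, on its brightest probe set (0.13, −0.34 to 0.59). Its second read 385, 443 and 352 on the mimic arrays and 227, 254 and 294 on the control arrays without overlap, at 0.61 (limma adjusted p = 0.103, and 0.0146 with the level-dependent robust prior). With 1 array left out, that prior still called this second probe set, except without mimic replicate 2 and without control replicate 1. That probe set is of the same type as the Itga5 one, and a further dim one gave 0.66.

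Among the integrin chains known mainly from blood cells, 0 passed the main test. Itgae, the alpha E chain by which lymphocytes bind E-cadherin, read 189, 191 and 232 on the mimic arrays and 135, 81.2 and 122 on the control arrays. The groups did not overlap (log2 fold change 0.88 ± 0.22 SE, with a limma adjusted p of 0.117, and of 0.019 with the level-dependent robust prior, which called it in 5 of 6 fits without 1 array). Its second probe set gave 0.77 and missed both tests. The brighter one is also of the type that can match more than 1 gene.

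Itga2b, the platelet chain alpha IIb, read 154, 129 and 145 on the mimic arrays, against 90.6, 83.8 and 99.0 on the control arrays (log2 fold change 0.65 ± 0.11 SE, with a limma adjusted p of 0.0663, and of 0.0472 with the level-dependent robust prior, which was lost without any 1 array). Itgb7, a beta chain of gut-homing lymphocytes and the partner of alpha E, read 171, 149 and 166, against 108, 116 and 106, and missed both tests (0.56 ± 0.089 SE, limma adjusted p = 0.0604 and 0.0548). Neither gene's groups overlapped. The leukocyte beta chain Itgb2, dim at −0.16, overlapped between the groups, and Itgam, Itgax and Itga4 were below the filter. The leukocyte chain Itgal (0.37), the tenascin-binding chain Itga9 (0.21) and Itgb4, the beta chain of hemidesmosomes (0.44), overlapped between the groups on their brightest probe sets and missed the test. A second Itga9 probe set gave 0.04 with overlap. A dim further one read 63.6, 35.1 and 37.4 on the mimic arrays and 24.3, 15.7 and 19.2 on the control arrays, without overlap. It missed both tests (1.17, limma adjusted p = 0.117, and 0.152 with the level-dependent robust prior).

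**Figure D4:**
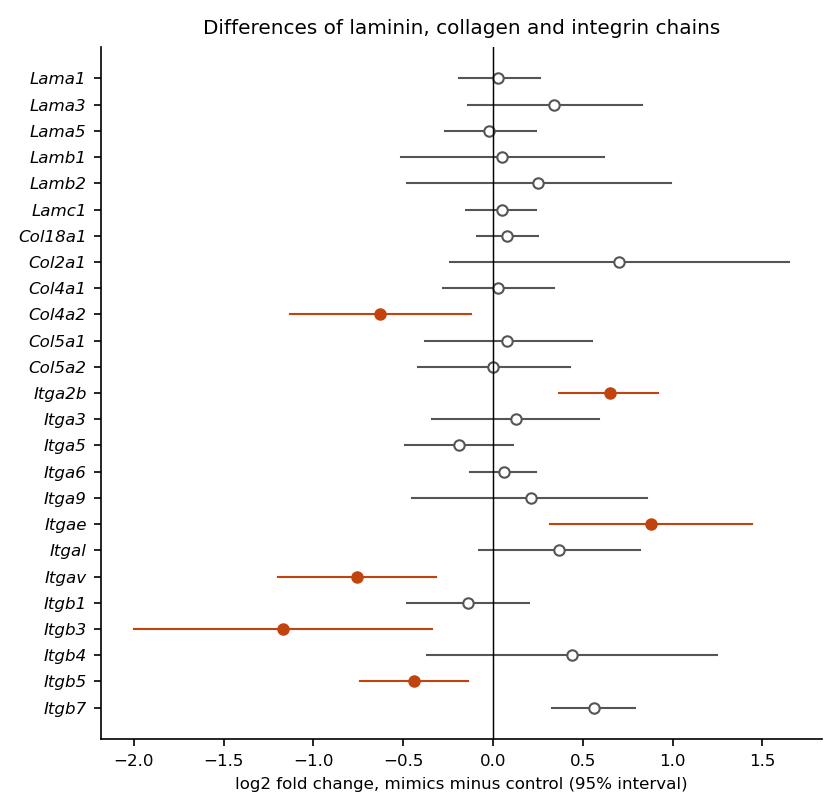
Log2 fold change (mimics minus control) with its 95% interval from the main limma fit for the chains with a mean log2 of at least 6, brightest probe set of each gene. Filled points passed at an adjusted p under 0.05 with the level-dependent robust prior, namely Col4a2, Itgav, Itgb3 and Itgb5 below 0 and Itga2b and Itgae above 0, and the main test called none of those drawn.

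Of the dim members, Col12a1, a collagen that lies along fibrils, missed the main test and passed with the level-dependent robust prior and with the offset of 16. Its brightest probe set read 52.3, 63.4 and 66.7 on the mimic arrays and 24.3, 16.3 and 27.9 on the control arrays, without overlap (log2 fold change 1.44 ± 0.23 SE; 0.99 with the offset of 16). Limma gave an adjusted p of 0.061, and of 0.0344 with the level-dependent robust prior. Of the fits with that prior that left out 1 array, only the one without control replicate 3 kept this call. The 3 further Col12a1 probe sets were below the filter.

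The 2 expressed genes named after integrins, Itgb1bp1, which encodes a protein that binds the beta 1 tail, and Itgb3bp, which encodes a centromere protein also known as CENP-R, missed the test. Itgb1bp1 read 855, 864 and 931 on the mimic arrays and 782, 759 and 740 on the control arrays, without overlap (0.22 ± 0.074 SE, limma adjusted p = 0.199). Itgb3bp overlapped (0.10).

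Genes that act beside these chains were counted from 3 lists, each gene through its brightest tested probe set. Of 25 basement membrane, matrix and matrix-binding genes, 0 passed limma. The brightest were Sparc, a collagen-binding glycoprotein gene, at 10069, 10591 and 9228 on the mimic arrays and 10325, 10589 and 9784 on the control arrays, and Sdc4, a heparan sulfate receptor of focal adhesions, at 7237, 6787 and 7745, against 6195, 7168 and 5239. The level-dependent robust prior called 2 higher, where 4.73% of all tested probe sets were. These were the fibronectin gene Fn1 (0.43, limma adjusted p = 0.0566 and 0.000315) and Agrn, the proteoglycan agrin (0.29, 0.133 and 0.0265), which are named after their values were seen. The list had a median of 0.09.

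Of 25 collagen-processing genes, 0 passed limma and the median was −0.13. The brightest, the prolyl isomerase gene Ppib and P4hb, a subunit of the prolyl hydroxylase that stabilises the collagen helix, gave 0.11 and 0.02. The level-dependent robust prior called 1 lower, Pcolce, an enhancer of procollagen cleavage (−0.24), where 6.56% of all tested probe sets were lower.

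Of 24 genes of integrin signalling and other matrix receptors, 1 fell in limma and 0 rose, with a median of −0.13, where 0.946% of all tested probe sets were lower and 0.343% higher. It was Parva, the actin-binding protein alpha-parvin that links integrins to the cytoskeleton in a complex with the kinase ILK. Parva read 314, 242 and 213 on the mimic arrays and 617, 802 and 712 on the control arrays, without overlap (log2 fold change −1.48, limma adjusted p = 0.0444, and 0.000131 with the level-dependent robust prior), and its second probe set gave −1.25 (0.0601 and 0.00109). The main call was lost with centring of the arrays, with quantile normalization and without any 1 array.

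The 24 genes were read through their brightest tested probe sets, most of them with a mean log2 of at least 6, so all tested probe sets are a dimmer background. Of the 19503 tested probe sets with a mean log2 of at least 6, the level-dependent robust prior called 1880 lower. With that prior 7 of the 24 were lower, against 6.56% of all tested probe sets: Parva, Cd47 (−0.59), Lims1, a further part of the ILK complex (−0.38), Cd151, a tetraspanin that pairs with laminin-binding integrins (−0.28), Vcl, the adhesion protein vinculin (−0.21), Tns3 (−0.21) and the integrin activator Fermt2 (−0.19). Fermt3, the form of that activator known from blood cells, was the 1 higher (0.55), where 4.73% of all tested probe sets were higher. Actn4 (0.08) and Tln1, the talin that binds beta chain tails (−0.02), missed both.

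Fibroblasts can accompany such cultures as feeder cells. The summed intensity of 15 fibroblast marker genes lay between 953 and 1096 on the mimic arrays and between 1415 and 1469 on the control arrays. In limma 1 of 9 tested genes fell, where 0.946% of all tested probe sets did. It was the actin-binding gene Tagln (−1.05, limma adjusted p = 0.0422), at 260 ± 21.3 on the mimic arrays and 540 ± 65.7 on the control arrays (SD, n = 3 each). Most of the gap between the 2 ranges of sums came from this gene. Pdgfrb (0.43) and Thy1 (0.10) had positive values and missed both tests. Tagln and S100a4 (−1.29) were the 2 called lower with the level-dependent robust prior, against 6.56% of all tested probe sets. The markers Col1a1, Col1a2, Col3a1, Postn, Twist2 and Fap were below the filter, which was set on the mean over all 6 arrays. The brighter Col1a1 probe set nevertheless read above 16 on every control array. The other Col1a1 probe set read 3.14, 1.08 and 19.8 there, against 8.43, 4.03 and 7.80 on the mimic arrays, with overlap. The dim marker Dcn was lower on all mimic arrays and missed both tests (−0.90, limma adjusted p = 0.105, and 0.0686 with the level-dependent robust prior). The part of a shift in fibroblast markers in the lower Itgav, Itgb3, Itgb5 and Parva values was not tested. Markers of extraembryonic endoderm, a cell type that makes laminin and collagen IV in bulk, summed to between 3859 and 4151 on the mimic arrays and between 3875 and 4262 on the control arrays. This list holds the member genes Lamc1, Lamb1, Col4a1, Lama1 and Col4a2, and all of these but Col4a2 gave its highest intensities. Its sum thus largely repeats the members' own values and is no separate measure of endoderm cells. Of its 19 genes, 11 had a mean log2 under 6. In limma 0 of 18 passed. With the level-dependent robust prior 1, the member Col4a2, had an adjusted p under 0.05, where 6.56% of all tested probe sets were lower. Stem cell markers summed to between 121676 and 128157 on the mimic arrays and between 110391 and 119426 on the control arrays. Of the 10 tested, all with a mean log2 of at least 6, 3 were called higher with the level-dependent robust prior, namely Esrrb (0.23), Utf1 (0.21) and Lin28a. That prior called 4.73% of all tested probe sets higher, and 1341 of the 19503 with a mean log2 of at least 6. In the main test 1 of the 10 rose, where 0.343% of all tested probe sets did. It was Lin28a, an RNA-binding protein gene, at 5071, 4971 and 4567, against 1600, 1580 and 1429 (log2 fold change 1.67, limma adjusted p = 0.0196).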

How the data were processed

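The authors deposited 1 linear intensity per probe set and array. GCRMA is named in the submitters' processing notes, and the mean of each array without its lowest and highest 2% is 500, as after global scaling; which tool made the values is not given in the sources used here, and detection calls were not used here. Median intensities per array lay between 41.7 and 44.9. Values were log2-transformed without an offset. Control probe sets (64) and 15870 probe sets with a mean log2 under 4 were left out, leaving 29167.

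Mimic and control arrays (3 each, from the sample titles) were compared with limma 3.58.1 under R 4.3.3 (linear models moderated with a constant prior, two-sided, Benjamini-Hochberg over all tested probe sets, threshold 0.05). The fit was tested on simulated arrays. Array number limits the precision. Genes were named from the platform table, and all 166 member probe sets matched GRCm38.p6 identifiers without a changed symbol; the brightest probe set stood for a gene. Members, lists and tests were chosen with earlier results of these data known. Genes named in full were those past the main test, those past the level-dependent robust prior with a mean log2 of at least 6, the 10 brightest, basement membrane and fibrillar chains and their receptors fixed by name, and for each list those past the main test or the 2 brightest; others were chosen after their values were seen. Alternatives were other priors, normalizations, offsets, filters, a replicate block and leaving out each array.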

Additional observations from a re-analysis of the deposited data

How the results depend on the processing

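The main test depended on its settings. It called 276 probe sets lower and 100 higher over the whole array. These counts were 1914 and 1379 with the level-dependent robust prior, 103 and 50 with median centring, 442 and 186 with an offset of 16, 1522 and 851 with a filter at a mean log2 of 6, 1800 and 1200 with a filter at 8, and 0 and 0 with no filter and with the replicate block. Without 1 array at a time they were 0 lower and 0 to 1 higher, whereas with the level-dependent robust prior they were 1186 to 1600 and 730 to 1244. Samples with the same replicate number did not deviate together (correlations from −0.00612 to 0.0242), so the number does not pair them.

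Of the member probe sets, 0 lower and 1 higher became 6 and 5 with the level-dependent robust prior, 4 and 4 with a filter at a mean log2 of 6, 4 and 2 with one at 8, 2 higher with the offset of 16, and 0 higher with no filter, with the replicate block and without any 1 array. By gene, 0 and 1 became 4 and 4 with the level-dependent robust prior, 2 and 3 with the filter at 6, 2 lower with the filter at 8, 2 higher with the offset, 4 higher when the probe sets of a gene were averaged, and 0 higher with no filter, with the replicate block and without any 1 array. Leaving out 1 array with the level-dependent robust prior gave 3 to 5 probe sets lower and 1 to 3 higher, and 1 to 3 genes lower and 0 to 2 higher. Near background were 87 member probe sets at a mean log2 under 4 and 124 at one under 6.

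Of the basement membrane list, the 0 higher genes became 2 with the level-dependent robust prior (1 to 3 without 1 array), 1 with the offset, 1 with the filter at 6 and 2 with that at 8. Of the collagen-processing list, 0 lower became 1 with the level-dependent robust prior (0 to 1 without 1 array) and 1 with the filter at 8. Of the integrin signalling list, 1 lower became 7 with the level-dependent robust prior (3 to 5 without 1 array), 2 with the offset, 3 with the filter at 6, 7 with that at 8, and 0 with centring, quantile normalization, no filter, the replicate block and without any 1 array, and 0 higher became 1 with the level-dependent robust prior (0 to 1 without 1 array) and 1 with the filter at 6.

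The log2 fold change of Lama5 changed sign with median centring (0.03) and quantile normalization (0.053). Without 1 array at a time the sign changed for Lama5 (−0.0715 to 0.068), Lama1 (−0.021 to 0.086), Lamb1 (−0.15 to 0.28), Col4a1 (−0.048 to 0.13) and Itga3 (−0.055 to 0.27), none of which passed a test. Itgav also passed with filters at 6 (limma adjusted p = 0.0342) and 8 (0.0113). So did, lower, the second Itgb1 probe set and the Itgb5 probe sets at −0.44 and −0.53, and, higher, the second Itga3 probe set. Itgae, Itga2b and Itgb7 passed as higher with the filter at 6 only, and Itgb1bp1 with that at 8 only. Why the counts move was not tested. Most member probe sets lie near background, which limits every statement on their genes.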
